A study of Mus musculus with 504 samples.

Results

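The interferon-stimulated genes measured here are 34 of the 55450 genes in the deposited count table. They are the rows of 34 named genes, found by matching the table's Ensembl identifiers to mouse symbols, and all 34 were found. The libraries come from mammary tumours of the MMTV-PyMT mouse model, whose transgene drives a viral oncogene in mammary epithelium. All animals also carried MMTV-Flpo and the RC::FrePe reporter, in which tumour cells express mCherry and change for good to GFP when Cre is active. Animals called TENA carried Tnc-CreERT2, in which the tenascin C gene drives the inducible Cre and which the study uses to trace partial epithelial to mesenchymal transition (EMT). Animals called Cdh carried Cdh2-CreERT2, driven by the N-cadherin gene, for full EMT. Tamoxifen was given to all animals in doses of 2 mg, with 2 doses a week starting at week 9, and tumours were taken at week 13 to 14, so that no group is free of it. Cells were sorted straight from the tumours as pools of 5 cells, and 335 pools passed the authors' quality control.

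The populations were sorted on GFP, mCherry and the epithelial surface protein EpCAM. Among TENA animals, P22 was positive for both colours with high EpCAM (50 libraries, 5 animals). P09 was high in GFP with medium EpCAM (48 libraries, 5 animals), although the series text gives that gate under another number. P16 was GFP positive with medium EpCAM (26 libraries, 4 animals), P10 GFP positive with low EpCAM (25 libraries, 4 animals) and P15 GFP positive without EpCAM (12 libraries, 3 animals). P05 was mCherry positive without EpCAM (32 libraries, 5 animals) and P17 mCherry positive with high EpCAM (11 libraries, 3 animals). P18, high in both mCherry and EpCAM, was the reference epithelial tumour population (55 libraries, 5 animals). Cdh animals gave P15 (16 libraries, 3 animals), P05 (10 libraries, 1 animal) and P18 (50 libraries, 5 animals).

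Interferons are secreted proteins that cells release on sensing viral or misplaced nucleic acids. Type I interferons bind the receptor IFNAR, and JAK kinases then phosphorylate STAT2, which joins IRF9 in a complex that binds the interferon-stimulated response element (ISRE) in target promoters. The targets include the sensors and transcription factors of the pathway itself, so the response feeds forward, and many cells hold a low tonic level of some targets without infection. In tumours the programme is known both from cancer cells and from the leukocytes among them.

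The authors' counts are reads per gene in each library, and the total per library ran from 313655 to 27849014. Levels below are counts per 1000000 counts (CPM), either of a single library or, where an animal is named, of the sum of that animal's libraries of a population scaled with TMM factors. The gates were checked against marker genes. All 5 TENA P18 animals carried the epithelial list (Epcam, Krt8, Krt18, Cldn4, Cldn7, Cdh1) at a summed 8694 to 20798 CPM. In TENA P15 that list summed to 29.4 to 231 CPM, with Cldn4, Cldn7 and Cdh1 at 0, while all 5 leukocyte markers were present at a summed 1779 to 4972 CPM and Ptprc (CD45) reached 10 CPM in 12 of 12 libraries. TENA P15 therefore carries the markers of leukocytes and is called by its gate here. In Cdh P15 the leukocyte list summed to 0 to 5.58 CPM, with Ptprc, Laptm5 and Tyrobp at 0, and the epithelial list to 27.6 to 180 CPM. TENA P05 was mixed, with Ptprc at 10 CPM in 7 of 32 libraries and the fibroblast gene Col1a1 in 16. Fewer cells of a type and less RNA per cell cannot be told apart in such pools. Cdh1624 P18 rests on 2 libraries, and TENA2524 P15 and TENA2483 P16 on 1 library each. The gates also differed in gene counts, with a median of 7328 genes with reads in TENA P15 libraries and 14140 in TENA P18 libraries.

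The ISRE was searched for in promoters because it is the element through which the members are known to respond. RefSeq promoters of build GRCm38.p6, each 300 bases with 250 before the start, were held for 25 of the 34 members. The motif was GAAANNGAAA, on both strands, with overlapping matches counted. It was present in 14 of the 25 members (56.0%), against 3.99% of the 27025 genes of the table and 3.44% of its 32851 promoters. The 14 members are Isg15, Ifit1, Ifit3, Ifit3b, Oas1a, Oas3, Rsad2, Stat2, Ifih1, Ddx58, Bst2, Gbp2, Gbp3 and Eif2ak2, and 7 of them held more than 1 match. A match describes these letters and is not a measured binding site. The windows of 100 bases below belong to 3 members of the Ifit family with some of the widest ranges between animals (Ifit1, Ifit3, Ifit3b) and 1 that was present in most P18 libraries (Gbp2). They run 5′ to 3′ on the plus strand, and capitals mark the motif, which here lies on the opposite strand. Ifit1 lies at chr19:34640755-34640854, Ifit3 at chr19:34583343-34583442, Ifit3b at chr19:34607739-34607838 and Gbp2 at chr3:142620563-142620662.
Ifit1: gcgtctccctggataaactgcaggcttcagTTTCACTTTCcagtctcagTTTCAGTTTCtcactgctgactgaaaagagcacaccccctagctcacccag
Ifit3: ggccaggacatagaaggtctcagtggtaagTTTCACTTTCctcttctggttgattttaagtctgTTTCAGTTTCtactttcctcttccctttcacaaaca
Ifit3b: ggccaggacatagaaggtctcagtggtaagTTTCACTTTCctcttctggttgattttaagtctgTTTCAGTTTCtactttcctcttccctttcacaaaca
Gbp2: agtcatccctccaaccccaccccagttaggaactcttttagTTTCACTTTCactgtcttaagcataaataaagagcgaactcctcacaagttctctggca
The Ifit3 and Ifit3b windows were identical over all 100 bases. Their transcripts are also close copies: 50.8% of the 51-base words of Ifit3 transcripts occur in Ifit3b, so with reads of 51 bases the split of counts between this pair is uncertain. Oas1a shared 57.0% of its words with Oas1g, a neighbour in the same family.

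In TENA P18 the members had reads in every animal, except Mx1 in TENA2462. Their summed level was 738 CPM in TENA2462, 988 CPM in TENA2483, 1124 CPM in TENA2517, 1265 CPM in TENA2524 and 803 CPM in TENA2560. A single gene, Ifi27, a mitochondrial and nuclear envelope protein, made up 220 to 432 CPM of these sums. The genes fell along a range from those held by nearly every 5-cell library to those held by very few. At 10 CPM or more, Ifi27 was present in 55 of 55 TENA P18 libraries, Ifi35 in 54, Rtp4 in 53, Irf7 in 49 and Gbp2 in 46. At the other end Ifit3 and Ifit3b were present in 8 libraries each, Rsad2 in 6, Oas3 in 2, and Mx1 and Ifit2 in 1.

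**Figure D1:**
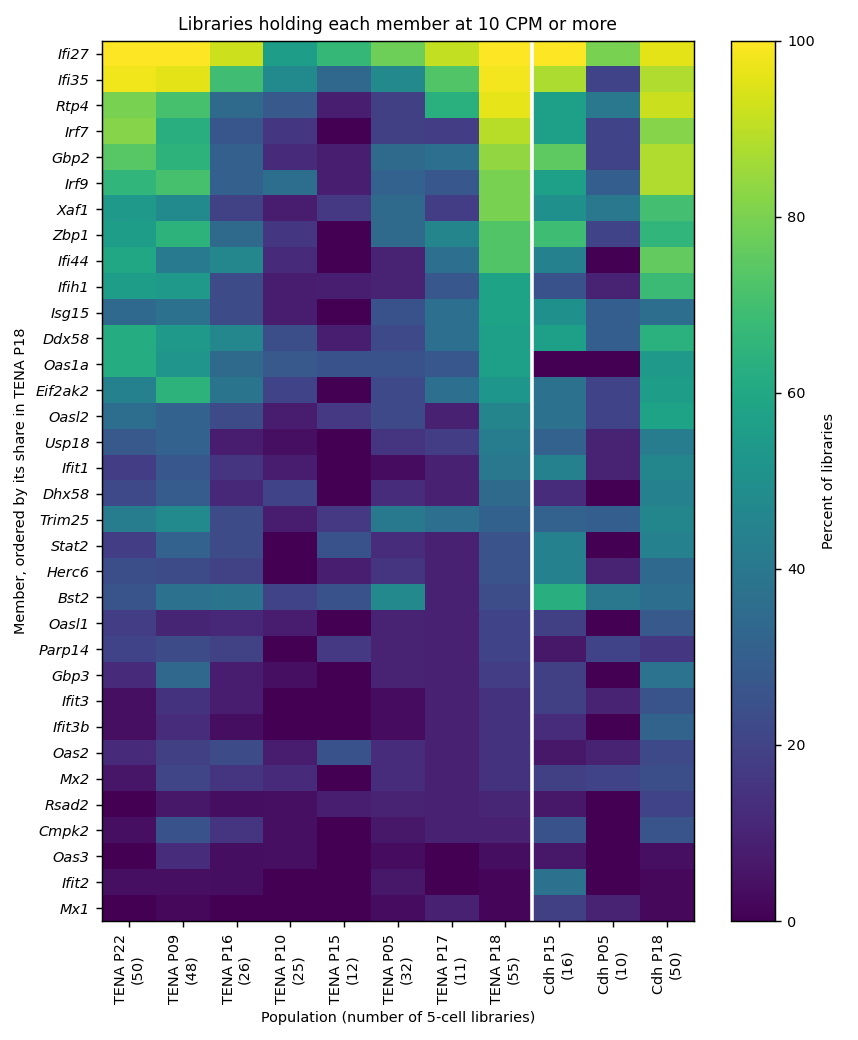
Percent of 5-cell libraries that held each member at 10 CPM or more, with populations across (library numbers in brackets, TENA left of the white line, Cdh right of it) and members down, ordered by their share in TENA P18. Ifi27, Ifi35, Rtp4 and Irf7 were present in 89.1% to 100% of TENA P18 libraries, and no member other than Ifi27 exceeded 33.3% in TENA P15.

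Among the transcription factors, Irf7, the factor that amplifies interferon production, averaged 95.1 ± 34.3 CPM in TENA P18 (SD, n = 5). Irf9, the DNA-binding part of that complex with STAT2, averaged 30.3 ± 9.08 CPM, and Stat2 averaged 8.54 ± 2.68 CPM. All 3 were present in each of the 5 animals, and Stat2 ran from 5.26 CPM in the lowest animal to 12.7 CPM in the highest. Among the sensors, Ifih1 (MDA5) and Ddx58 (RIG-I), which bind double-stranded viral RNA, averaged 19.4 ± 4.84 and 14.6 ± 4.67 CPM. Dhx58 (LGP2), which regulates both, averaged 9.64 ± 1.77 CPM and Zbp1, a sensor of Z-form nucleic acid, 22.2 ± 6.39 CPM. No animal of TENA P18 was at 0 for any of these 7 genes.

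The Ifit proteins bind viral RNA, and 4 of their genes lie together on chromosome 19. Ifit1 was at 4.71 CPM in TENA2462, 15.4 CPM in TENA2483, 39.0 CPM in TENA2517, 72.7 CPM in TENA2524 and 5.49 CPM in TENA2560 in P18. Ifit3 was at 4.51, 8.44, 66.6, 7.12 and 1.52 CPM in the same animals. Ifit3b followed Ifit3, at 3.60, 5.83, 40.9, 6.08 and 0.834 CPM. TENA2517 was far above the other animals for Ifit3 and Ifit3b, and TENA2524 was highest for Ifit1. Ifit2 averaged 0.963 ± 1.06 CPM, with 298 reads over 55 libraries. These spreads were the widest of the list: Ifit3, Ifit3b, Ifit1, Rsad2 and Mx2 had the 5 largest ranges between animals on the log2(CPM + 1) scale, from 3.01 for Mx2 to 4.75 for Ifit3.

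Members of the OAS family make or resemble enzymes that make the oligoadenylate messenger of RNase L. Oas1a averaged 21.9 ± 3.84 CPM and Oasl2 19.2 ± 9.76 CPM in TENA P18, while Oasl1 averaged 9.72 ± 8.35, Oas2 5.60 ± 2.73 and Oas3 1.49 ± 1.68 CPM. Of the antiviral GTPases, Gbp2, a guanylate-binding protein induced strongly by interferon gamma, was at 37.2, 90.7, 36.4, 170 and 36.8 CPM in TENA2462, TENA2483, TENA2517, TENA2524 and TENA2560. Gbp3 averaged 7.08 ± 5.43 CPM. The dynamin-like Mx1 and Mx2 averaged only 1.43 ± 2.84 and 3.53 ± 3.07 CPM.

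In the ubiquitin-like system, Isg15, the modifier itself, averaged 18.2 ± 5.77 CPM, its protease Usp18 20.3 ± 8.45 CPM, its mouse ligase Herc6 7.83 ± 2.81 CPM and Trim25, which acts on RIG-I, 7.82 ± 3.41 CPM. Per kilobase of exon, which allows levels of different genes to be set side by side, Ifi27 led with 210 CPM per kilobase, before Ifi35 with 35.1, Gbp2 with 29.5, Rtp4 with 29.1, Irf7 with 25.2 and Isg15 with 24.0. The remaining 28 members lay between 0.211 (Oas3) and 11.6 (Oas1a) CPM per kilobase. Among the other effectors, Rtp4, a chaperone and negative regulator in the pathway, averaged 61.9 ± 26.0 CPM, Ifi35 60.6 ± 23.5, Xaf1 31.4 ± 14.9, Ifi44 30.2 ± 13.2 and the RNA-activated kinase Eif2ak2 (PKR) 14.2 ± 3.14 CPM. Rsad2 (viperin), Cmpk2, which lies beside it, Parp14 and the tetherin gene Bst2 averaged between 3.36 and 7.06 CPM.

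The highest animal values of several rarely held genes came largely from single pools. In TENA2517 P18, library R1 held 33 of 34 members at 10 CPM or more, against a median of 14 over the 55 TENA P18 libraries, and its summed level was 4293 CPM, against a median of 774 CPM. It held Ifit3 at 657 CPM, Ifit3b at 414, Ifit1 at 298, Usp18 at 243 and Isg15 at 180 CPM. It was low for Ifi27, at 30.0 CPM. That library gave 85.1% of the Ifit3 reads of its animal, whose level was 66.6 CPM with it and 10.85 CPM without it. All 5 leukocyte markers were at 0 in R1, and the epithelial list summed to 6975 CPM with all 6 genes present. The library had 11630 genes with reads, below the median of its population.

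Such pools were found in both lines and in several gates. In Cdh1654 P18, library R8 held 31 members, with Ifit1 at 350 CPM, Irf7 at 333 CPM and Usp18 at 163 CPM, and again all 5 leukocyte markers at 0. In TENA2462 P16, library R11 held 28 members, with Mx2 at 478 CPM and Rsad2 at 385 CPM but Ifit3 at only 38.5 CPM. That library gave 99.9% of the Rsad2 reads of its animal. In TENA2462 P09, library R9 held 28 members, and in TENA2517 P22, library R2 held 26. The epithelial list summed to 5790 to 20240 CPM in these 4 libraries. In TENA2483 P05, library R1 held 26 members at a summed 4373 CPM, the highest sum of all 335 libraries, with Ifit3 at 684, Ifit1 at 616, Ifit3b at 528, Ifit2 at 325 and Mx1 at 210 CPM. This last pool differed from the others in its markers, with 8 of 9 macrophage genes at 10 CPM or more, a summed macrophage level of 16041 CPM, and Epcam at 0.

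**Figure D2:**
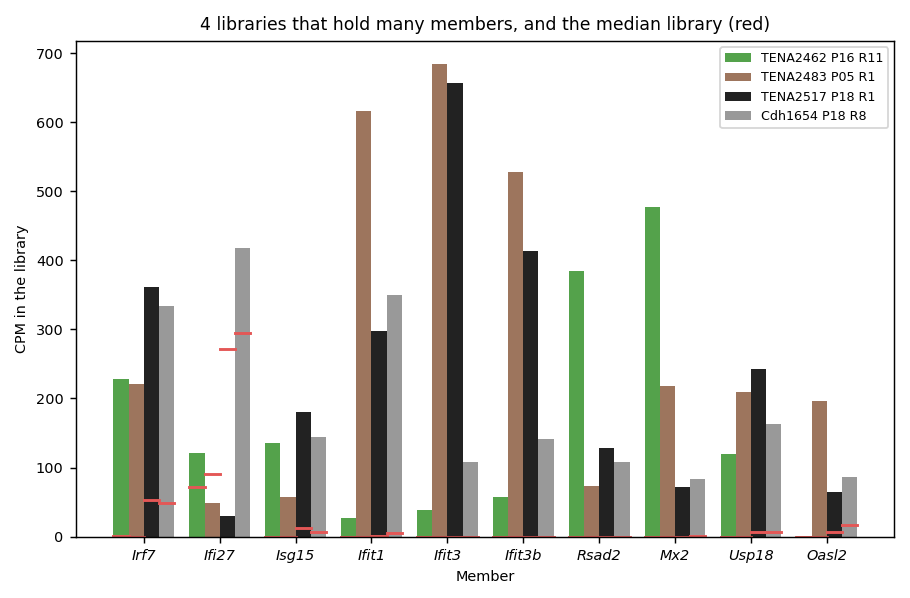
CPM of 10 members (bars) in 4 single 5-cell libraries that held many members, with a red line at the median of all libraries of the same population. TENA2462 P16 R11 was led by Mx2 and Rsad2, TENA2483 P05 R1 and TENA2517 P18 R1 by Ifit3, and Cdh1654 P18 R8 by Ifi27 and Ifit1.

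Within P18 several of the rarely held genes were found at a higher rate in the pools that held Ifit3. Of the 8 TENA P18 libraries with Ifit3 at 10 CPM or more, 8 also held Irf7, Oas1a and Xaf1, 7 held Stat2 and Isg15, and 5 held Ifit3b, Usp18 and Parp14. Of the 47 libraries without Ifit3, 41 held Irf7, 23 Oas1a, 36 Xaf1, 7 Stat2, 25 Isg15, 3 Ifit3b, 18 Usp18 and 6 Parp14. Stat2 and Parp14 were thus concentrated in the pools with Ifit3, and Irf7 was not. The median gene count was 14310 in the 8 libraries and 14033 in the 47. In Cdh P18, all 13 libraries with Ifit3 held Ifit1, Oasl2 and Irf7, against 10, 16 and 28 of the 37 without. Herc6 did not follow this, held by 4 of the 13 and 13 of the 37. Across libraries the mean Spearman correlation between members was 0.23 over 55 TENA P18 libraries and 0.36 over 50 Cdh P18 libraries. In TENA P18 the mean correlation with the other members was lowest for Trim25 (0.007), Ifi27 (0.03) and Ifi35 (0.05). In Cdh P18 it was 0.34, 0.18 and 0.28 for these genes. These coefficients are descriptions, since the libraries share animals and the counts are sparse.

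Changes between populations were tested over animals with edgeR's quasi-likelihood test, with the animal as a block and p-values adjusted by the Benjamini-Hochberg method over all genes tested. A gene was called at an adjusted p under 0.05. In none of the 11 comparisons was any of the members called. All 34 passed the filter on low counts in the 9 comparisons within lines. Beside the calls stand the number of members at an unadjusted p under 0.05 and the number that DESeq2 called, each with the share of all genes tested that met the same rule, and also how many members were lower in every animal that had both populations, a count that uses no model.

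The members' summed level, as a mean over animals, was lowest in TENA P15, at 344 ± 288 CPM (SD, n = 3), against 983.5 ± 219 CPM in P18 (n = 5). It was 285 CPM in TENA2483, 657 CPM in TENA2517 and 89.9 CPM in TENA2524, against 988, 1124 and 1265 CPM in P18 of the same animals. Isg15, Eif2ak2, Ifit1, Ifit2, Ifit3, Ifit3b, Oas3, Mx2 and Cmpk2 had no read in the 12 P15 libraries, which hold 45182788 counts, and Dhx58, Oasl1 and Ifi44 had 1 to 3. All 34 had reads in TENA P18. In TENA P15, 26.5% of the members and 39.2% of all 33768 genes tested were at 0. In TENA P18 these shares were 0% and 20.5%. The share of members at 0 was thus not above that of all genes in either population. From P18 to P15 it went from 0% to 26.5%, against 20.5% to 39.2% over all genes. edgeR called 0 of 34 members, where it called 0.729% of all genes, and 13 members had an unadjusted p under 0.05 (15.2% of all genes). All 13 were lower in P15. DESeq2 called 15 of 34 (15.7% of all genes). The median fitted log2 fold change was -4.06 over the members and -0.61 over all genes, or -3.85 over the members with the 9 genes at 0 set to their bound. In all 3 animals 24 of the 34 members were lower in P15, as were 24.2% of all genes.

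Isg15 had 0 reads in the 3 P15 animals, against 18.2, 27.1 and 17.6 CPM in P18 of TENA2483, TENA2517 and TENA2524. With 0 reads replaced by a floor of 3 over the population, its pooled level was at least 258-fold lower in P15. For this fold and that of Eif2ak2 below, P18 was pooled over all 5 animals, also those without P15 libraries. The floor covers counting error only. Eif2ak2 was likewise at 0 in the 3 P15 animals, against 16.7, 15.4 and 15.3 CPM in P18, a pooled level at least 199.5-fold lower. It had the lowest adjusted p of the members, 0.061 with edgeR, and was chosen for mention after its values were seen. Without the animal as a block, edgeR called 2 members, Eif2ak2 and Isg15, and Eif2ak2 was also called with only sums of at least 3 libraries and without Cdh1624, Cdh1725 or Cdh1739. No share of all genes called is given for these settings, so these calls cannot be set against one. Irf7 was at 0.970, 3.32 and 0 CPM in P15, against 120, 142 and 71.1 CPM in P18 of the same animals. Its log2 fold change was -6.26 ± 2.28 (SE) with an adjusted p of 0.19 in edgeR, and the groups did not overlap.

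Ifi27 had the highest mean level of the members in P15, 85.5 ± 27.9 CPM (SD, n = 3), at 113, 57.1 and 86.7 CPM in TENA2483, TENA2517 and TENA2524, against 289, 257 and 432 CPM in P18. Its log2 fold change was -1.69 ± 0.65 with an adjusted p of 0.21 in edgeR, lower in 3 of 3 animals. The fitted log2 fold change was above 0 for 7 members, Oas2, Bst2, Trim25, Parp14, Stat2, Oas1a and Ifi35, at 0.0096 to 2.47, none of them called. Some members were high in a single P15 animal. In TENA2517, Ifi35 was at 136, Bst2 at 70.3, Oas1a at 63.1, Trim25 at 60.1 and Rsad2 at 42.8 CPM, against 58.5, 8.66, 18.8, 10.6 and 14.6 CPM in P18 of that animal. One library gave 99.8% of its Rsad2 reads. Without TENA2517 the median over the members was -9.41, and edgeR again called 0 of them. The leukocyte markers given above move with this comparison, and their part in it was not tested. Libraries with Ptprc could not be left out, since they are all of TENA P15.

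TENA P10, the GFP population with low EpCAM, lay next above P15, at a mean of 391 ± 169 CPM (SD, n = 4). Its summed level was 237 CPM in TENA2462, 259 in TENA2483, 574 in TENA2517 and 493 in TENA2524, against 738, 988, 1124 and 1265 CPM in P18, with no overlap between the groups. edgeR called 0 of 34 members (0.00296% of all genes), 7 had an unadjusted p under 0.05 (8.23%) and DESeq2 called 4 (4.98%), namely Ifit3, Ifit3b, Stat2 and Herc6. Ifit3 and Ifit3b had no read in 25 P10 libraries, a pooled level at least 513-fold and 336.9-fold lower with a floor of 3 reads. P18 was pooled over all 5 animals here, and these folds lean on 1 pool, TENA2517 P18 R1, at 657 and 414 CPM. Single P18 animals ran from 1.52 to 66.6 CPM for Ifit3 and from 0.834 to 40.9 CPM for Ifit3b. Stat2 was at 0.125, 0.418, 0 and 0.156 CPM in P10, against 7.90, 8.35, 8.47 and 12.7 CPM in P18 of the same animals. Ifi27 was at 76.2, 48.8, 41.7 and 157 CPM, against 220, 289, 257 and 432 CPM, a log2 fold change of -1.92 ± 0.59 with an adjusted p of 0.47 in edgeR. The median over the members was -2.32 and -0.22 over all genes, and 15 members were lower in all 4 animals, as were 10.6% of all genes. The 574 CPM of TENA2517 came largely from 1 library, which gave 71.5% of the reads, and the sum was 322 CPM without it. Ptprc reached 10 CPM in 4 of 25 P10 libraries, and the median library held 4 members both among these 4 and among the other 21. The median summed level of the members was 429 CPM in these 4 libraries and 174 CPM in the other 21. Marker genes of other cell types move with this comparison. The 5 leukocyte markers summed to 0.498 to 3836 CPM in P10 animals, against 0 to 1.04 CPM in P18 animals, and DESeq2 called all 5 higher. The 9 macrophage markers summed to 6.89 to 8297 CPM in P10, against 6.18 to 39.1 CPM in P18, and the epithelial list to 66.6 to 16936 CPM in P10, against 8694 to 20798 CPM in P18. Their part in the values of P10 was not tested.

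**Figure D3:**
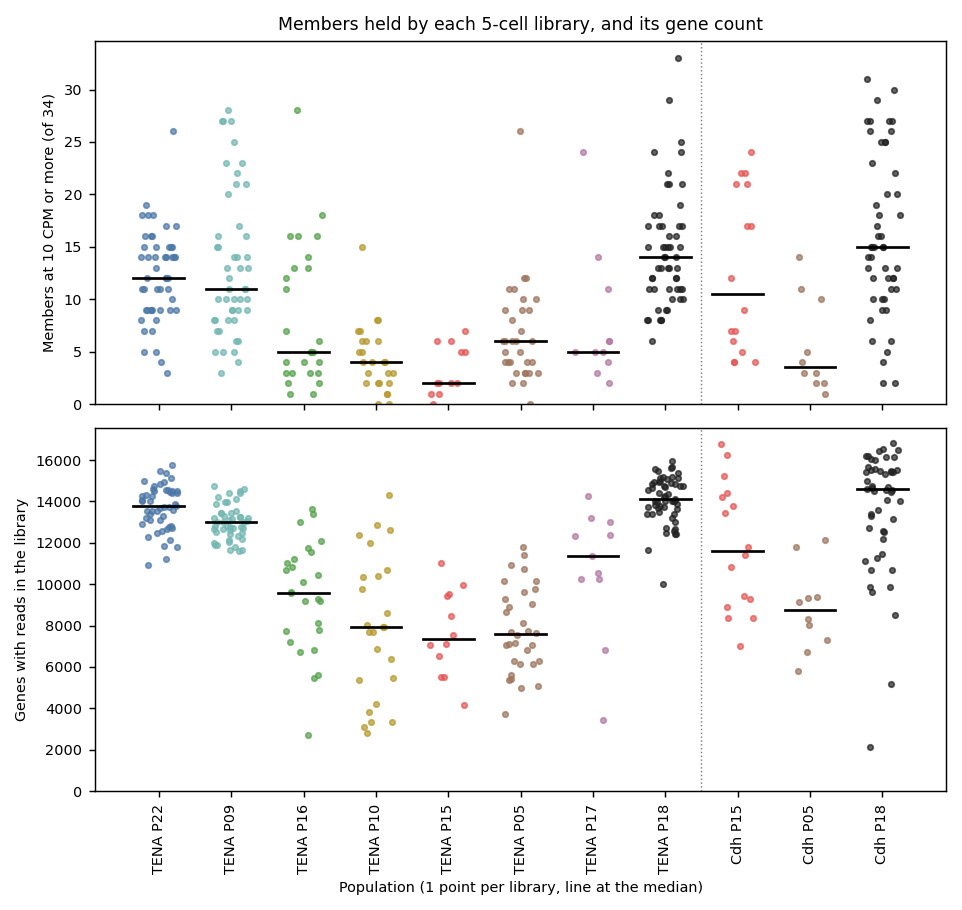
Number of members at 10 CPM or more (top, out of 34) and number of genes with reads (bottom) in each 5-cell library, by population, with 1 point per library and a line at the median. The medians were 12, 11, 5, 4, 2, 6, 5 and 14 members in TENA P22, P09, P16, P10, P15, P05, P17 and P18, and the median gene counts ran from 7328 in P15 to 14140 in P18.

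In TENA P22, the cells with both colours, the members summed to a lower level than in P18, and this recurred between animals. Their summed level was 519, 621, 843, 706 and 577 CPM in TENA2462, TENA2483, TENA2517, TENA2524 and TENA2560, against 738, 988, 1124, 1265 and 803 CPM in P18. Each animal was lower in P22. The members lower in all 5 animals numbered 13, as were 4.79% of all genes, and no member was higher in all 5. The 13 were Irf7, Zbp1, Ifit3, Ifit3b, Oas1a, Oas2, Oas3, Usp18, Herc6, Rsad2, Cmpk2, Rtp4 and Ifi27. Irf7 was at 16.2, 50.4, 119, 38.1 and 25.3 CPM, against 62.0, 120, 142, 71.1 and 80.5 CPM in P18. Usp18 was at 8.00, 12.3, 7.21, 6.54 and 0 CPM, against 21.7, 16.4, 34.0, 18.0 and 11.6 CPM. edgeR called 0 of 34 members, as it did 0% of all genes, and Oas3 alone had an unadjusted p under 0.05 (2.12% of all genes). DESeq2 called that 1 gene (2.47%). The median log2 fold change was -0.84 over the members and -0.01 over all genes. P22 and P18 were close in gene count, with medians of 13772 and 14140 genes per library, and in their epithelial markers, at 8361 to 25748 CPM in P22 and 8694 to 20798 CPM in P18.

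In TENA P09 the members' median lay nearest to 0 among the comparisons within lines. Its summed level was 523, 668, 743, 768 and 908 CPM in TENA2462, TENA2483, TENA2517, TENA2524 and TENA2560, and TENA2560 was above its P18 value of 803 CPM. edgeR called 0 of 34 members (0% of all genes), 0 had an unadjusted p under 0.05 (2.52%) and DESeq2 called 0 (3.71%). The median was -0.09 over the members and -0.03 over all genes, and over the members it was 0.09 with RLE scaling, 0.01 without TENA2517 and -0.44 without TENA2560. Ifi27, Irf7 and Rsad2 were lower in all 5 animals and Trim25 was higher in all 5, while 5.76% and 4.34% of all genes did the same. Ifi27 was at 159, 185, 151, 248 and 231 CPM in P09, against 220, 289, 257, 432 and 341 CPM in P18.

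TENA P16 varied widely between animals. The summed level was 1130 CPM in TENA2462, 100 CPM in TENA2483 (1 library), 299 CPM in TENA2517 and 475 CPM in TENA2524, and it was 653 CPM in TENA2462 without library R11. edgeR called 0 of 34 members (0.00296% of all genes), Ifi27 alone had an unadjusted p under 0.05 (6.11%) and DESeq2 called 0 (3.52%). Ifi27 was at 131, 53.3, 118 and 128 CPM, against 220, 289, 257 and 432 CPM in P18, a log2 fold change of -1.34 ± 0.58 with an adjusted p of 0.78 in edgeR. The median over the members was -1.16 and -0.21 over all genes. Over the members it was -0.46 without TENA2483, -0.63 without TENA2517 and -2.68 without TENA2462. The members lower in all 4 animals numbered 7, as were 11.3% of all genes, and numbered 12 without the fullest library of each population.

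TENA P05, mCherry positive without EpCAM, held the members at 594, 983, 491, 611 and 588 CPM in TENA2462, TENA2483, TENA2517, TENA2524 and TENA2560. TENA2483 was at 664 CPM without library R1, which gave all of its Ifit3 reads. edgeR called 0 of 34 members (0.545% of all genes), 0 had an unadjusted p under 0.05 (13.3%) and DESeq2 called 0 (13.5%). Rtp4 was at 4.56, 29.9, 5.30, 0 and 0 CPM, against 30.1, 75.0, 58.0, 98.2 and 48.2 CPM in P18. The groups were only narrowly apart, at 29.85 CPM in the highest P05 animal and 30.06 CPM in the lowest P18 animal. Its adjusted p was 0.45 in edgeR. Irf7 split the animals, at 84.8, 32.5 and 159 CPM in TENA2462, TENA2483 and TENA2517 and at 0 in TENA2524 and TENA2560, against 62.0, 120, 142, 71.1 and 80.5 CPM in P18. The median was -0.81 over the members, -0.15 over all genes and -0.26 over the members with RLE scaling. It was -0.42 without TENA2524, -0.48 without TENA2517 and -1.33 without TENA2483. Only 5 members were lower in all 5 animals, as were 10.8% of all genes. The 5 leukocyte markers summed to 1.47 to 3332 CPM in P05 animals, against 0 to 1.04 CPM in P18 animals, the 6 fibroblast markers to 11.2 to 15608 CPM in P05, against 0.206 to 7.64 CPM in P18, and the epithelial list to 43.8 to 1299 CPM in P05, against 8694 to 20798 CPM in P18. What part these markers have in the values of P05 was not tested.

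TENA P17 rested on 3 animals and 11 libraries. The summed level was 199 CPM in TENA2517, 1194 CPM in TENA2524 and 509 CPM in TENA2560, against 1124, 1265 and 803 CPM in P18. edgeR called 0 of 34 members (0% of all genes), 3 had an unadjusted p under 0.05 (5.02%) and DESeq2 called 2 (5.36%), Ifit2 and Oas3, which had no read in P17. Ifi27 was at 59.6, 45.3 and 301 CPM in TENA2517, TENA2524 and TENA2560, against 257, 432 and 341 CPM in P18, a log2 fold change of -1.48 ± 0.67 with an adjusted p of 0.95 in edgeR. The members lower in all 3 animals numbered 11, as were 17.5% of all genes. Library R1 of TENA2524 held 24 members, and the count was 26 when the fullest library of each population was left out. The median over the members was -0.83, against -0.40 over all genes, and was -2.59 without TENA2524, -0.18 without TENA2517 and -0.39 without TENA2560.

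**Figure D4:**
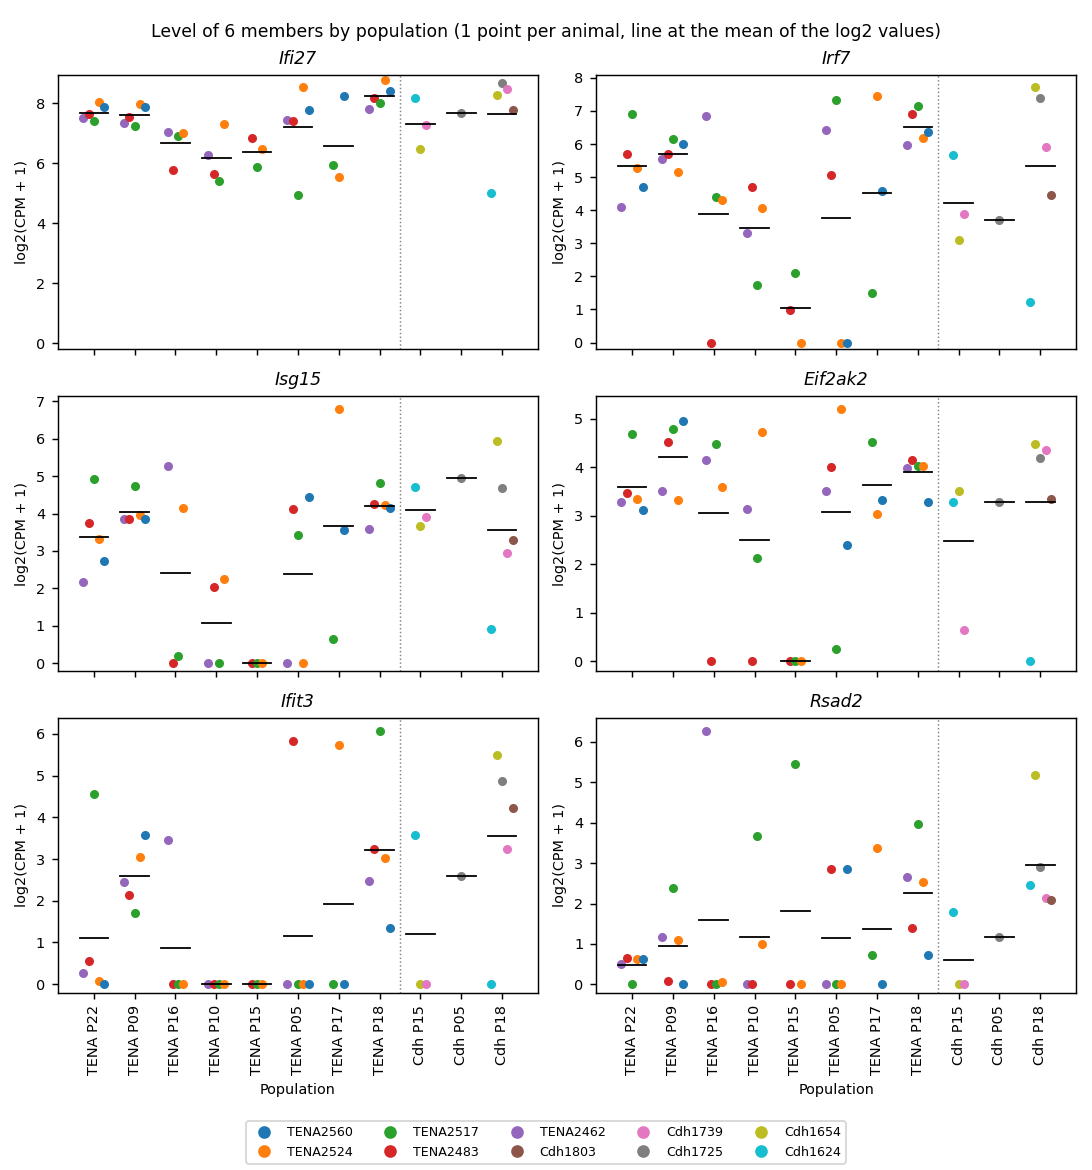
Level of 6 members as log2(CPM + 1) of the summed libraries of each animal, by population, with 1 point per animal and a line at the mean of the log2 values. Isg15 and Eif2ak2 were at 0 in all 3 TENA P15 animals, Ifi27 was at 29.5 CPM or more in every animal, and Ifit3 and Rsad2 were high in single animals.

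P15 and P05 of TENA animals, which both lack EpCAM, were also compared directly. The 3 shared animals summed to 285, 657 and 89.9 CPM in P15 (TENA2483, TENA2517, TENA2524), against 983, 491 and 611 CPM in P05. edgeR called 0 of 34 members (0.136% of all genes), 7 had an unadjusted p under 0.05 (10.3%), all lower in P15, and DESeq2 called 15 (16.8%). Eif2ak2 again had the lowest adjusted p in edgeR, 0.13, at 0 in P15 and at 15.1, 0.189 and 35.8 CPM in P05 of the same animals. Of the members, 5 were lower in all 3 animals, as were 7.36% of all genes. The median over the members was -3.61, against -0.58 over all genes, and was -1.01 without TENA2483 and -10.57 without TENA2517.

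In Cdh animals P15, the GFP population of full EMT, overlapped with P18 in the summed level of the members. It was 1103 CPM in Cdh1624, 430 CPM in Cdh1654 and 595 CPM in Cdh1739, against 69.8, 1607 and 1012 CPM in P18 of the same animals, and P18 of Cdh1725 and Cdh1803 was at 1676 and 771 CPM. The order was reversed in Cdh1624, whose P18 sum rests on 2 libraries. edgeR called 0 of 34 members (0% of all genes), 0 had an unadjusted p under 0.05 (3.6%) and DESeq2 called 6 (7.69%), Oas1a, Oasl1, Parp14, Rsad2, Ifit3 and Ifit3b. Gbp2 was higher in P15 in all 3 animals, at 34.1, 77.0 and 272 CPM, against 0, 29.0 and 126 CPM in P18. Ifih1 was lower in all 3, at 1.17, 16.0 and 2.98 CPM, against 24.3, 32.7 and 27.0 CPM, and Rsad2 was the other member lower in all 3 (3.82% of all genes were lower and 9.14% higher in all 3). Oas1a was at 1.49, 0 and 0 CPM in P15 and reached 10 CPM in 0 of 16 libraries, while it did so in 27 of 50 P18 libraries. The median over the members was -1.56, against 0 over all genes, and was -4.29 without Cdh1624, -0.16 without Cdh1654 and 0.96 without Cdh1739. The median Cdh P15 library held 10.5 members at 10 CPM or more and 11620 genes, and libraries with more genes held more members (Spearman correlation 0.86 over 16 libraries, which share 3 animals).

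Cdh P05 came from 1 animal, Cdh1725, and was not tested. Its members summed to 553 CPM, against 1676 CPM in P18 of that animal. Irf7 was at 12.2 CPM against 166 CPM, Rtp4 at 30.1 against 107 CPM, Mx2 at 29.1 against 8.72 CPM and Isg15 at 30.2 against 24.6 CPM. In this P05 sum the leukocyte list stood at 638 CPM, the fibroblast list at 5332 CPM and the epithelial list at 19.3 CPM.

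Between lines, the summed level of the members in P18 was 69.8 to 1676 CPM in 5 Cdh animals and 738 to 1265 CPM in 5 TENA animals. edgeR called 0 of 34 members (0% of all genes), 0 had an unadjusted p under 0.05 (2.41%) and DESeq2 called 0 (0.0173%). The median log2 fold change was 0.14 over the members and -0.15 over all genes, and over the members it was -0.23 without Cdh1725, -0.16 without Cdh1654 and 0.36 without Cdh1624. All Cdh animals and 1 TENA animal were sequenced on the second lane and the other 4 TENA animals on the first, so that line and lane are nearly confounded. On the second lane the TENA side is 1 animal, TENA2524, against which the median over the members was 0.14, and this has no replicate check. The ranges of the lines overlapped for all 34 members, and a missed threshold does not show that the lines act alike. The Cdh range is widened by Cdh1624, whose P18 sum rests on 2 libraries and was at 0 CPM for Irf9, Ddx58, Rtp4 and Ifi35. Overlap was therefore likely and says little about likeness of the lines.

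P15 of Cdh animals was set against P15 of TENA animals with 21 of the 34 members passing the filter on low counts. Isg15 and Eif2ak2 had no read in TENA P15 and passed the filter only through Cdh P15, so the direction of their difference was fixed. Zbp1 had 9 reads in TENA P15, all in TENA2483, so its direction was close to fixed as well. Irf7 was near this position, with 28, 51 and 0 reads in TENA2483, TENA2517 and TENA2524. The counts that follow only describe the members that passed. edgeR called 0 of the 21 (0% of all genes), 3 had an unadjusted p under 0.05 (10.6%), and DESeq2, which gave 19 members an adjusted p, called 4 (10.3%), Isg15, Zbp1, Eif2ak2 and Irf7. Isg15 was at 24.9, 11.7 and 14.0 CPM in Cdh1624, Cdh1654 and Cdh1739, against 0 in the 3 TENA animals, and had an adjusted p of 0.12 in edgeR. Zbp1 was at 57.7, 20.85 and 8.38 CPM in Cdh P15, against 0.312, 0 and 0 CPM in TENA P15. The groups did not overlap for these 4 members, Isg15, Zbp1, Eif2ak2 and Irf7. They also did not overlap for Stat2 (19.3 to 22.7 CPM in Cdh P15, 0 to 18.6 CPM in TENA P15), which DESeq2 did not call. The same held for Gbp3 (1.93 to 12.6 CPM against 0 to 1.82 CPM), so separation does not mark the called members. No share of all genes that separated in this way is given, so this is a description only. For members at or near 0 in TENA P15, the filter made such separation likely. The TENA side of this comparison on the second lane is 1 library, so no value within a lane is given. Ptprc was at 10 CPM in 0 of 16 Cdh P15 libraries and in 12 of 12 TENA P15 libraries, and the part of this difference in cell markers was not tested.

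**Figure D5:**
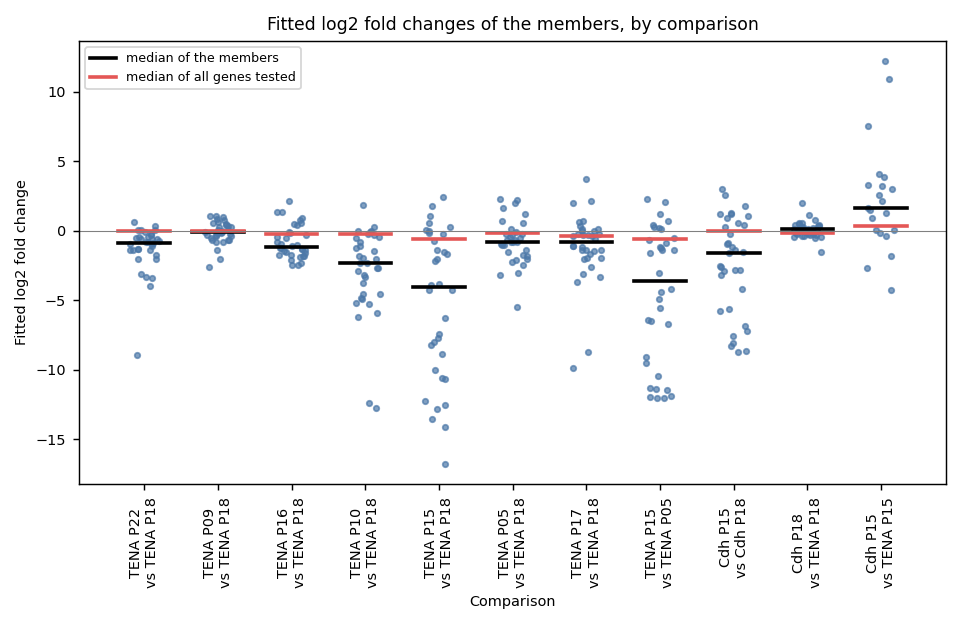
Fitted log2 fold change of each member that passed the filter (points) in the 11 comparisons, with the median of the members (black) and of all genes tested (red). The members' median lay below that of all genes in the 9 comparisons within lines, by most in TENA P15 (-4.06 against -0.61), and fitted values below about -10 belong to genes with few or no reads in one population.

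edgeR called 0 genes in the rest of the pathway in any of the 11 comparisons. Of 16 interferon genes, 11 had any read, 2 reached 10 CPM in a library and 5 had none (Ifna2, Ifna4, Ifna5, Ifna11, Ifne). Ifnb1, the first type I interferon of the response, had 43 reads in 1 library of TENA2462 P09, and Ifng, made by T and NK cells, had 56 of its 57 reads in 1 library of TENA2524 P05. These libraries held 5 and 3 members at 10 CPM or more, against medians of 11 and 6 in their populations. Ifnk had the most reads, 208 over 20 libraries. The 6 receptor genes were tested in all comparisons within lines, and the type I receptor chain Ifnar2 had a log2 fold change of 0.25 ± 0.96 in TENA P15 against P18 (adjusted p of 1.0 in edgeR). Ifnlr1, the chain particular to type III interferons, which act mainly on epithelia, had no read in TENA P15, against 0.531 to 3.27 CPM in the 5 P18 animals, with an adjusted p of 0.14 in edgeR. Of 18 signalling genes, 6 negative regulators and 27 measured genes among 28 other interferon-stimulated genes, edgeR called 0 in TENA P15 against P18, with 4, 0 and 3 at an unadjusted p under 0.05, while DESeq2 called 3, 0 and 5 of them and 2 of the receptors. Over all genes the shares were 15.2% at an unadjusted p under 0.05 and 15.7% called by DESeq2. Their median log2 fold changes were 0.45, 0.54 and -0.53, against -0.61 over all genes and -4.06 over the 34 members. Cxcl10, a chemokine among the other stimulated genes, had the lowest adjusted p of these lists in edgeR, 0.088 in TENA P05 against P18, at 0 to 96.2 CPM in P05 and with no read in P18.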

How the data were processed

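The authors deposited whole-number read counts per gene and library. Per the submitters' processing notes, reads were handled with STAR, SAMtools, featureCounts and Subread on mm10; their versions, settings and strand mode were not given in the sources used here. Per the labels' protocols, libraries were Smart-seq2 from pools of 5 cells, which carry no molecular identifiers, so that intervals and floors cover counting error only. Of 504 wells, 335 libraries passed quality control, 152 failed and 17 were empty wells; only passed libraries were used. Counts were summed per animal and population (43 sums), since pools of an animal are not replicates. All sums entered 1 edgeR (4.0.16) quasi-likelihood fit with TMM factors, filterByExpr and the animal as block, which pairs populations of the same animal; comparisons between lines used only the sums of that population, with no block. CPM of a single library used its total count. The step was tested on simulated data. Members and lists were chosen with earlier results of these data known. Members given in full were the 5 highest per kilobase and the 5 with the widest range between animals in TENA P18, and any that was called. Values by animal are also given for members that this rule did not name, among them Isg15, Eif2ak2, Stat2, Usp18, Ifih1, Oas1a and Zbp1. These are examples and not a preset selection. Alternatives were RLE scaling, no filter, DESeq2 (1.42.0), equal weight of libraries, sums without Ptprc libraries or of at least 3 libraries, no block, only the populations compared, only the second lane, and leaving out each animal.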

Additional observations from a re-analysis of the deposited data

Results flagged for a closer look

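Of 75 sets of values, each of a gene or the summed members in the 4 or 5 animals of a population, 15 had an animal far from the others. Chance alone flags about 1 in 20 independent sets, but these share animals and libraries and 5 genes were chosen for a wide range, so the number is not read against it. Those of Cdh1624 P18, which rests on 2 libraries, were all low: Ifi27 at 31.05 CPM (others 216 to 410), Ifi35 at 0 (others 32.8 to 99.5), Rtp4 at 0 (others 49.0 to 107) and the summed members at 69.75 CPM (others 771 to 1676). Ifi27 was also low in TENA2483 P16, a single library, at 53.25 CPM (others 118 to 131).

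The others were high in 1 animal, except Rsad2 in TENA P22. TENA2462 P16 was high for Ifit3 (10.05 CPM), Ifit3b (11.75), Rsad2 (76.4) and Mx2 (102.3), with the other 3 animals at 0 to 0.0362 CPM. TENA2483 P05 was high for Ifit3 (55.43 CPM), Ifit3b (42.85) and Ifit1 (50.16), with the others at 0 to 0.519 CPM. TENA2517 P22 was high for Ifit3 (22.55 CPM, others 0 to 0.481), and low for Rsad2 (0, others 0.411 to 0.584). Cdh1654 P18 was high for Rsad2 (35.23 CPM, others 3.27 to 6.44).

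For Gbp2 the median of P15 minus P18 had opposite signs in the lines. It was 48.0 CPM over the 3 Cdh animals and -36.45 CPM over the 3 TENA animals, a difference that was not tested. In TENA P15, only TENA2483 had Gbp2 reads, at 88.1 CPM, close to its P18 level given above. TENA2524 P15 is 1 library, and Cdh1624 P18, at 0 CPM, rests on 2 libraries. Of 152 libraries that failed quality control, 69.74% held reads of a member, against 17.65% of the 17 empty wells, which held 7 such reads in all.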

How the results depend on the processing

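Of 181 alternatives to the count of members called other than DESeq2, 175 gave 0. DESeq2 called 1 member in TENA P22, 4 in P10, 15 in P15, 2 in P17, 15 in P15 against P05, 6 in Cdh P15 against P18 and 4 in Cdh P15 against TENA P15. Without the replicate block the pairing by animal was dropped, and edgeR called 2 members in TENA P15 and 1 in P15 against P05; it changed no other count. Sums of at least 3 libraries gave 1 call in TENA P15, and leaving out 1 animal at a time gave 0 to 1. The causes were not tested, and no share of all genes called is given for these edgeR alternatives.

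The count of members lower in every shared animal was checked under 3 alternatives chosen after seeing the data. It moved to 2 (RLE scaling) and 12 (without the library with the most members) in TENA P16, to 2 and 8 in P05, to 26 without that library in P17 and to 3 in P15 against P05. In TENA P22 it was 11 to 13. A fit of only the populations compared gave medians over the members of -2.93 in TENA P16, -3.52 in P10, -6.75 in P15, -2.15 in P05 and -2.08 in P17 against P18.

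Ifi35 and Rsad2 changed sign in TENA P15. Ifi35, at 0.0096, was -0.052 with no filter, -0.54 with equal weight of libraries, -0.033 without the replicate block, -0.90 with only the populations compared, -0.79 as a median over animals and -1.73 to 0.52 without 1 animal. Rsad2, at -0.15, was 0.29 with RLE scaling, 0.0094 with DESeq2, 0.68 with sums of at least 3 libraries, 1.42 without the replicate block and -8.92 to 1.33 without 1 animal.

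Sums without Ptprc libraries gave no value for TENA P15. P15 rests on 12 libraries and 45182788 counts, which limits what can be seen of genes at 0.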
